A study of Sus scrofa with 24 samples.

Results

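Translation initiation factors (gene symbols starting with EIF) and elongation factors (EEF) were examined in pig liver as 34 genes, out of 4965 genes named on the array. A gene was taken where the symbol, systematic name or description of a probe named it as EIF or EEF followed by a digit, and the EIF2AK kinases were left out. Liver RNA came from 24 pigs at 115 kg body weight, 1 array per pig, in 3 groups of 8. The restricted high RFI group (RFIplR) was of the line selected for high residual feed intake and received feed at the low RFI level. The high RFI group (RFIpl) was of the same line and was fed ad libitum. The low RFI group (RFIneg) was of the line selected for low residual feed intake and was also fed ad libitum. RFI, residual feed intake, is what an animal eats above the amount its growth and maintenance predict, and pigs of the low RFI line use feed more efficiently. High minus low RFI compares the lines at free intake, restricted minus high RFI compares feeding levels within a line, and restricted high minus low RFI compares the lines at the same feeding level. Each line is a single selection line, so RFI and any other difference between the lines cannot be told apart.

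Protein synthesis starts when a complex of EIF2, GTP and the initiator tRNA joins the small ribosomal subunit together with EIF1 and EIF3, and EIF2B then recharges used EIF2 with GTP. The EIF4 factors bind the mRNA cap and unwind the leader, EIF4E-binding proteins hold EIF4E back until nutrient and insulin signals release it through the kinase mTOR, and EIF5 and EIF5B complete the start. During elongation EEF1A brings charged tRNAs to the ribosome, the EEF1B complex recharges EEF1A, and EEF2K is the kinase that holds back the translocating factor EEF2. In liver these steps serve the synthesis of plasma proteins and of enzymes, and their activity is known to follow feeding largely through phosphorylation of the proteins, which arrays do not measure.

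The 34 genes were represented by 108 probes, each a DNA oligonucleotide of 60 bases, and 16 genes had a single probe. Each gene's level is that of its brightest probe, as log2 signal minus the 75th percentile of the array. A gene counts as measured if, in some group, 6 or more of the 8 arrays gave that probe a signal well above background. On that count 31 genes were measured, 29 of them above background on all 24 arrays. EIF2A, EIF2S3 and EIF2C4 were not measured. The probes below are those that the results on EIF3E, EEF1A1 and EIF4G3 turn on, and overlapping ones are shown together because they read the same stretch of RNA. Probe letters are those of the deposited scanner output. At least 1 of the 3 forward reading frames of each printed probe had no stop codon. The probes were not placed on a genome.

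The first 3 EIF3E probes share a run of 21 bases, given in capitals.
A_72_P571584: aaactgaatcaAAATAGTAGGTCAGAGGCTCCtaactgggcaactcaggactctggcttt
A_72_P595524: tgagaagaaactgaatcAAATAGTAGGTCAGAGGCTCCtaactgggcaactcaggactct
A_72_P686652: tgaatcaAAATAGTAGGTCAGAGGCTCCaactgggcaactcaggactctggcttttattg
Another 3 EIF3E probes, from a separate stretch of the transcript, share a run of 38 bases in capitals.
A_72_P558944: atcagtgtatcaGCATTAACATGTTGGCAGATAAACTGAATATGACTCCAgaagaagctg
A_72_P621831: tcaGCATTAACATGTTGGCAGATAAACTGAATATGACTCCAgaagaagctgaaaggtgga
A_72_P587721: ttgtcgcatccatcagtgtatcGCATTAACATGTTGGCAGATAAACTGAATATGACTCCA
Among the EEF1A1 probes, A_72_P712838 overlaps A_72_P721093 by 21 bases and A_72_P721018 by 18 bases, both in capitals, and A_72_P746511 overlaps none of them.
A_72_P721093: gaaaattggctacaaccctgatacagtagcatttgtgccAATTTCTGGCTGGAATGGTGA
A_72_P712838: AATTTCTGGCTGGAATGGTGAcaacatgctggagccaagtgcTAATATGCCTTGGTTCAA
A_72_P721018: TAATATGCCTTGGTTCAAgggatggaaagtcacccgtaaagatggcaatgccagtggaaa
A_72_P746511: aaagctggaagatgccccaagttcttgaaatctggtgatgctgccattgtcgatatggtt
The probe that gave the level of EIF4G3 shares no run of 15 bases with the other EIF4G3 probe.
A_72_P115851: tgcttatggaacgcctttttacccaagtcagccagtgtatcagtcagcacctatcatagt

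None of the 31 measured factors passed the threshold in any comparison. EIF3E, the subunit of EIF3 also known as INT6, was lowest in high RFI pigs but missed the threshold after adjustment. EIF4G3, a scaffold of the cap-binding complex, missed it too. It was highest in high RFI pigs by its brightest probe but not by its other probe. In high minus low RFI, limma with Benjamini-Hochberg adjustment called 0 of the 31, against 0.152% of the 29662 probes tested (45 probes). It called 0 of 31 in restricted minus high RFI, against 0% of all probes. In restricted high minus low RFI it called 0 of 31, against 0.276% (82 probes), and the F test over the 3 groups called 0 of 31, against 0.206% (61 probes). The smallest adjusted p of a factor was 0.337 in high minus low RFI, 0.919 in restricted minus high RFI and 0.443 in restricted high minus low RFI.

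At an unadjusted p under 0.05, 2 of the 31 factors (6.45%) stood out in high minus low RFI, against 9.58% of all probes. They were EIF3E and EIF4G3. In restricted minus high RFI only EIF4G3 did (3.23%, against 5.31% of all probes), and in restricted high minus low RFI none did, against 12.7%. These shares were below those of all probes. No factor had groups that did not overlap, against 0.138%, 0.0337% and 0.145% of all probes in the 3 comparisons in the same order.

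Most differences were small, and their 95% intervals reached a median of 0.22 to either side in each comparison. In high minus low RFI the differences ranged from -0.37 to 0.28 on the log2 scale. They ranged from -0.28 to 0.36 in restricted minus high RFI and from -0.36 to 0.34 in restricted high minus low RFI. The 95% interval lay wholly within -0.5 and 0.5 for 24 of 31 factors in high minus low RFI (77.4%, against 66.3% of all probes). It did so for 26 (83.9%, against 69.9%) in restricted minus high RFI and for 25 (80.6%, against 64.6%) in restricted high minus low RFI. The SD between pigs of a group, pooled over the 3 groups, had a median of 0.21 over the factors and 0.27 over all probes. The widest intervals were those of EEF1B2, from -0.64 to 0.94 in high minus low RFI, and of EIF2C2, from -0.74 to 0.69. Both reach past 0.5 in either direction. The size of difference that could have been called was not worked out for single factors.

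The signs were uneven in both comparisons that use the high RFI pigs. In high minus low RFI, 22 of 31 factors had a difference below 0 (71%, against 49.2% of all probes), with a median of -0.067, against 0.0027 over all probes. In restricted minus high RFI, 21 of 31 were above 0 (67.7%, against 49% of all probes), with a median of 0.041, against -0.0035. The signs were nearly even in restricted high minus low RFI, with 16 of 31 below 0 (51.6%, against 49.7% of all probes) and a median of -0.011, against 0.00099 over all probes. Both of the first comparisons use the same 8 high RFI arrays, so their opposite signs are not separate observations. The 31 factors were measured in the same pigs, so their signs are not separate observations either. Each factor stands by its gene's brightest probe, while all probes include dimmer ones, here and in the shares above. Within scan days, the median in high minus low RFI was -0.040 on day 1 and -0.11 on day 2. That in restricted minus high RFI was 0.077 on day 1 and -0.016 on day 2. Each scan day held only some of the 8 pigs of each group, so values within a day, here and below, rest on fewer pigs. Day 1 held more restricted than low RFI pigs, and day 2 fewer.

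**Figure D1:**
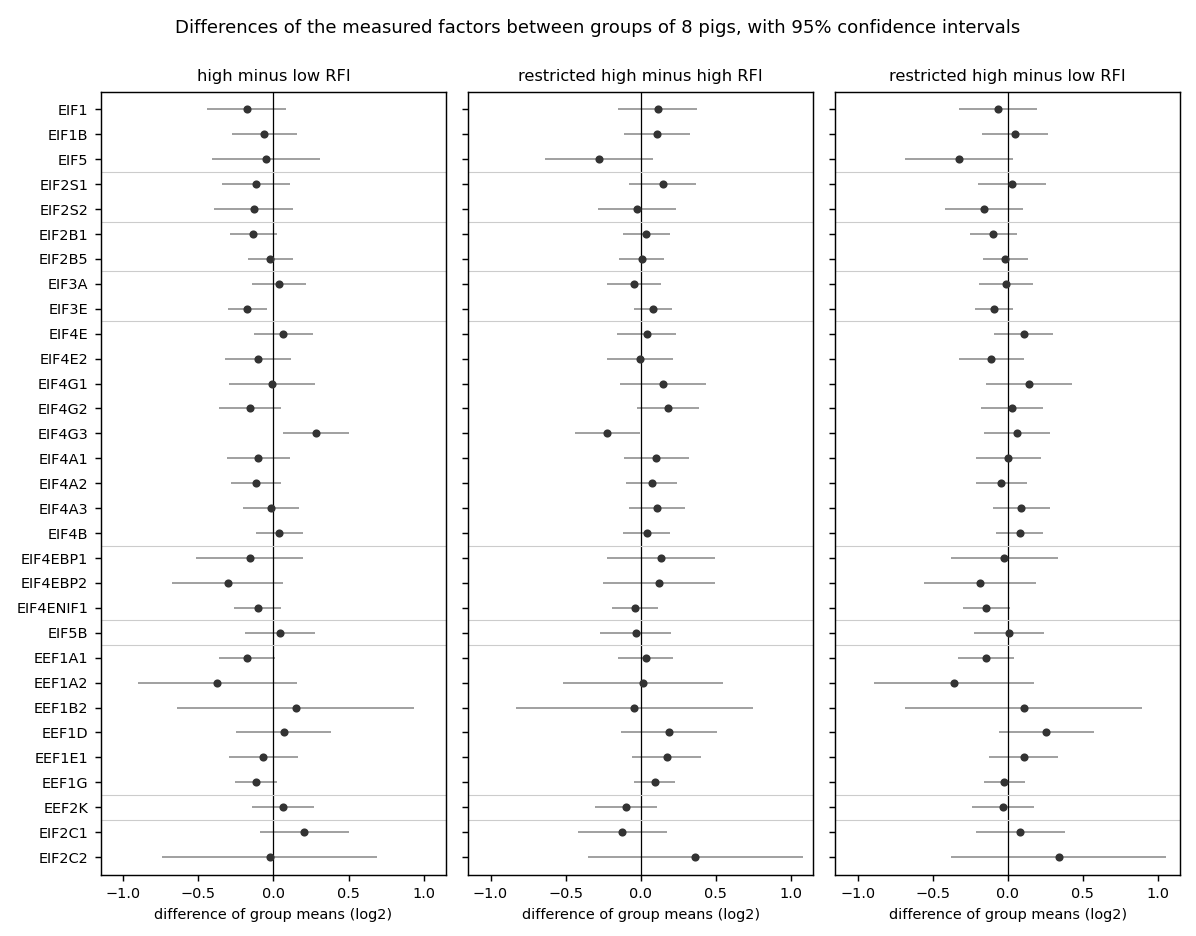
Difference of group means (log2, x axis) of the 31 measured factors, ordered by role and separated by grey lines, in the 3 comparisons of 8 pigs against 8. Points are limma estimates and bars 95% confidence intervals. Only EIF3E and EIF4G3 have an interval that leaves out 0 in high minus low RFI, and only EIF4G3 does in restricted minus high RFI.

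**Figure D2:**
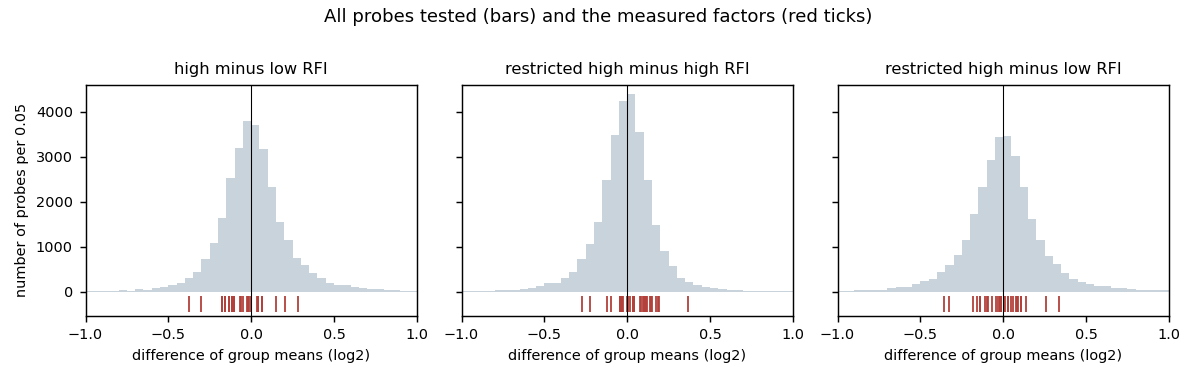
Number of probes in bins of 0.05 (bars) by difference of group means (log2, x axis, drawn between -1 and 1) over the 29662 probes tested, with the 31 measured factors as red ticks. The factors lie within the bulk of all probes, with a median of -0.067 in high minus low RFI, 0.041 in restricted minus high RFI and -0.011 in restricted high minus low RFI.

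Taken over the 31 factors, each pig's mean deviation from the factors' overall means spanned -0.10 to 0.098 in restricted high RFI pigs, -0.097 to 0.056 in high RFI pigs and -0.060 to 0.11 in low RFI pigs. The medians were 0.017, -0.039 and 0.029 in the same order. The ranges of the 3 groups overlapped in part: 4 of the 8 high RFI pigs lay below every low RFI pig, and 2 of the 8 low RFI pigs lay above every high RFI pig.

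EIF3 is the large scaffold that holds the small ribosomal subunit, its start factors and the mRNA together, and EIF3A and EIF3E were the subunits named by symbol, description or systematic name. A probe tied to EIF3J by another accession column alone was not analysed. EIF3E (probe A_72_P571584) had levels of 4.77, 4.99 and 5.17 (lowest, median and highest) in restricted high RFI pigs, 4.81, 4.90 and 5.0 in high RFI pigs and 4.93, 5.10 and 5.18 in low RFI pigs. All 8 high RFI pigs lay below the low RFI mean, but their ranges overlapped, and restricted pigs overlapped both. The difference in high minus low RFI was -0.17 (SE 0.061, 95% interval -0.30 to -0.046, adjusted p = 0.337), which is 1.13-fold lower in high RFI pigs. It was -0.15 on scan day 1 and -0.20 on scan day 2. In restricted minus high RFI it was 0.082 (adjusted p = 0.962), and in restricted high minus low RFI -0.091 (adjusted p = 0.579). With another background correction (normexp), the difference was -0.100 in high minus low RFI and -0.0028 in restricted high minus low RFI.

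EIF3E was covered by 14 probes in 7 stretches, a stretch being a set of probes linked by shared runs of at least 15 bases. In high minus low RFI all 14 lay below 0, from -0.29 for A_72_P618975 to -0.12 for A_72_P587381, and 12 had an unadjusted p under 0.05. The smallest adjusted p, 0.219, belonged to A_72_P558944 of the second printed set, with a difference of -0.27. The printed set that holds the brightest probe differed less, with -0.17, -0.14 and -0.16 in the order printed. Both stretches held 4 probes, and those not printed gave -0.19 (A_72_P473521, brightest stretch) and -0.15 (A_72_P245442, the other). With these the stretches overlapped, at -0.19 to -0.14 and -0.27 to -0.15. All 14 lay above 0 in restricted minus high RFI, from 0.057 to 0.22. Averaged over the 14 probes, each centred on its own mean, the deviation was 0.015 ± 0.16 in restricted high RFI pigs, -0.11 ± 0.11 in high RFI pigs and 0.095 ± 0.11 in low RFI pigs (SD, n = 8 each). Probes of a gene measure the same RNA of the same pigs and are not replicates. Over all 16 factors with more than 1 measured probe, the probes of a factor shared a sign in 8 factors in high minus low RFI, 7 in restricted minus high RFI and 8 in restricted high minus low RFI.

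EIF3A, the largest EIF3 subunit, did not share that pattern. Its levels were 4.55, 4.76 and 5.07 (lowest, median and highest) in restricted high RFI pigs, 4.54, 4.82 and 4.91 in high RFI pigs and 4.58, 4.70 and 5.12 in low RFI pigs. The 3 ranges overlapped. Its difference was 0.034 in high minus low RFI (SE 0.087, adjusted p = 0.937) and -0.045 in restricted minus high RFI (adjusted p = 0.988). Of its 5 probes, 4 lay above 0 in high minus low RFI. Whether EIF3A and EIF3E differed from each other in response was not tested.

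EEF1A1 is the isoform of EEF1A found in most tissues. Its brightest probe (A_72_P016236) had levels of 8.02, 8.24 and 8.68 (lowest, median and highest) in restricted high RFI pigs, 8.00, 8.27 and 8.46 in high RFI pigs and 8.18, 8.45 and 8.55 in low RFI pigs. High RFI pigs lay low and low RFI pigs high, with overlap, and restricted pigs spread over both. The difference was -0.18 in high minus low RFI (SE 0.090, adjusted p = 0.557) and -0.14 in restricted high minus low RFI (adjusted p = 0.543). The second of these was -0.015 on scan day 1 and -0.28 on scan day 2, and the first was -0.12 and -0.20. With normexp the first was -0.073 and the second -0.0054.

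All 19 EEF1A1 probes, in 10 stretches, lay below 0 in high minus low RFI, from -0.35 to -0.060, and 7 had an unadjusted p under 0.05. The smallest adjusted p was 0.334. The 9 probes with a mean level above 7 had a median difference of -0.16 and a range of -0.18 to -0.060. The other 10 had a median of -0.28 and a range of -0.35 to -0.20, so the 2 ranges did not overlap. The level of 7 was chosen after the values were seen. The 3 overlapping probes printed above differed by -0.35, -0.34 and -0.30 in the order printed, and A_72_P746511, one of the brighter set, by -0.18. Of the 19, 18 lay above 0 in restricted minus high RFI. The exception was A_72_P212082, with -0.15, which also had the lowest value in restricted high minus low RFI, -0.41 (adjusted p = 0.235). That probe was the dimmest of the 19 and the only one assigned by a name in its description rather than by a RefSeq accession.

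EEF1A2, the isoform known from muscle and neurons, was dim in liver. It had levels of -3.06, -2.44 and -1.43 (lowest, median and highest) in restricted high RFI pigs, -2.76, -2.40 and -1.80 in high RFI pigs and -3.01, -1.76 and -1.16 in low RFI pigs. The low RFI range held every pig of the other groups but 1 restricted pig. The differences were -0.37 in high minus low RFI (adjusted p = 0.687) and -0.36 in restricted high minus low RFI (SE 0.26, adjusted p = 0.608), the second being -0.13 on scan day 1 and -0.73 on scan day 2. The skeletal muscle markers measured (4 of 5 listed) had median differences of -0.18 and -0.21 in the same comparisons. Their mean level per pig ranged from -1.54 to -0.91 in restricted high, from -1.58 to -0.71 in high and from -1.51 to -0.69 in low RFI pigs, and their part in the EEF1A2 values was not tested.

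EEF1B2, EEF1D and EEF1G are subunits of EEF1B, the complex that recharges EEF1A with GTP, and EEF1E1 is a scaffold protein of the tRNA synthetase complex. EEF1G had levels of 5.91, 6.14 and 6.33 (lowest, median and highest) in restricted high RFI pigs, 5.87, 6.03 and 6.22 in high RFI pigs and 6.10, 6.13 and 6.23 in low RFI pigs, which lay within a narrow band. Its differences were -0.12 in high minus low RFI (SE 0.067, adjusted p = 0.608) and 0.095 in restricted minus high RFI (adjusted p = 0.962). EEF1D had levels of 4.20, 4.54 and 4.81 in restricted high RFI pigs, 4.01, 4.40 and 4.55 in high RFI pigs and 3.51, 4.5 and 4.64 in low RFI pigs. A few low RFI pigs lay low, and the medians were close. The difference in restricted high minus low RFI was 0.26 (SE 0.15, adjusted p = 0.513), but it was -0.064 on scan day 1 and 0.46 on scan day 2. EEF1E1 had levels of 0.03, 0.40 and 0.59 in restricted high RFI pigs, -0.14, 0.26 and 0.39 in high RFI pigs and -0.14, 0.28 and 0.65 in low RFI pigs. Its difference in restricted minus high RFI was 0.17 (SE 0.11, adjusted p = 0.948). EEF1B2 varied most between pigs, with a pooled SD of 0.81 and differences of 0.15 in high minus low RFI and -0.043 in restricted minus high RFI. Over the 6 genes of elongation factor 1, 4 lay below 0 in high minus low RFI and 5 above 0 in restricted minus high RFI, with none called.

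EEF2K, the kinase that inhibits EEF2, had levels of 2.28, 2.81 and 3.18 (lowest, median and highest) in restricted high RFI pigs, 2.63, 2.85 and 3.02 in high RFI pigs and 2.60, 2.75 and 3.09 in low RFI pigs. Restricted pigs spread the widest and held both of the other groups. Its differences were 0.064 in high minus low RFI (SE 0.10, adjusted p = 0.882), -0.095 in restricted minus high RFI (adjusted p = 0.974) and -0.031 in restricted high minus low RFI (adjusted p = 0.929).

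**Figure D3:**
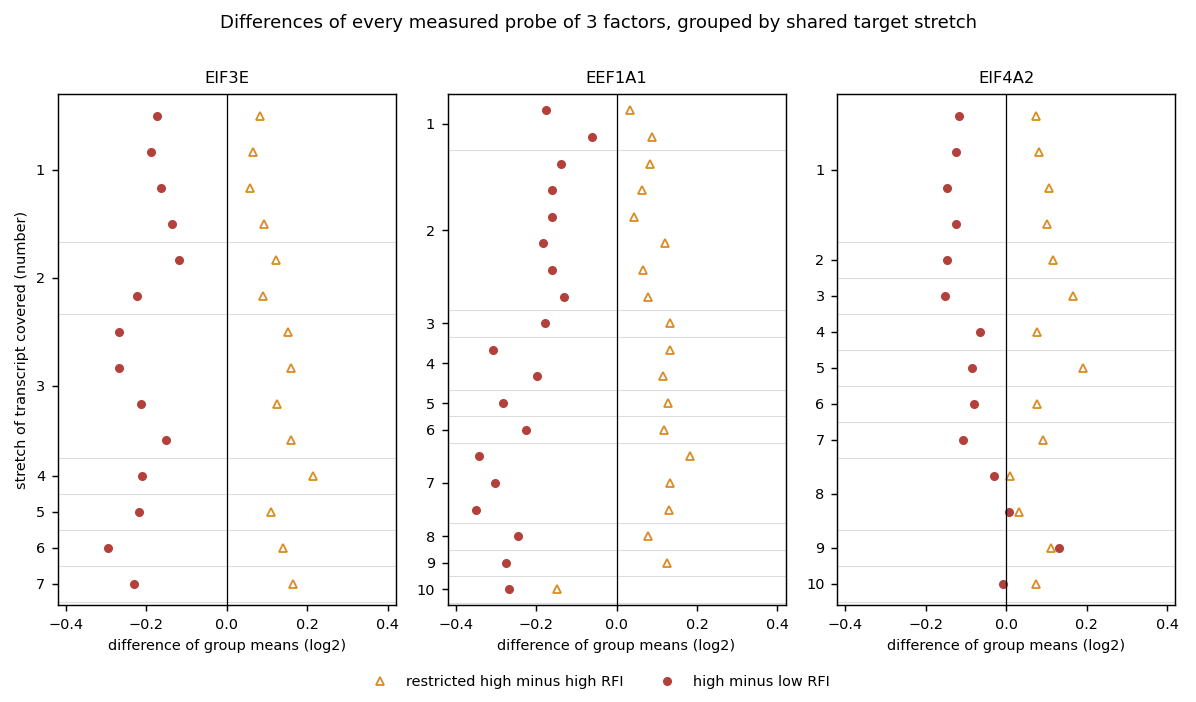
Difference of group means (log2, x axis) of every measured probe of EIF3E (14 probes), EEF1A1 (19) and EIF4A2 (14), grouped by stretch of transcript (number on the y axis, brightest stretch at the top). Open triangles are restricted high minus high RFI and filled circles high minus low RFI, which share the high RFI pigs. All circles of EIF3E and EEF1A1 lie below 0, and in EIF4A2 the probe of stretch 9 lies at 0.13.

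The cap-binding and helicase factors were the largest group, with 9 genes, all measured and none called. Their median difference was -0.017 in high minus low RFI (6 of 9 below 0), 0.075 in restricted minus high RFI (7 of 9 above 0) and 0.060 in restricted high minus low RFI (7 of 9 above 0). EIF4G3 (probe A_72_P115851) had levels of 0.26, 0.40 and 0.77 (lowest, median and highest) in restricted high RFI pigs, 0.45, 0.65 and 0.97 in high RFI pigs and -0.03, 0.37 and 0.87 in low RFI pigs. All 8 high RFI pigs lay above 7 of the 8 low RFI pigs, and the remaining low RFI pig, at 0.87, lay within the high RFI range. The difference in high minus low RFI was 0.28 (SE 0.11, 95% interval 0.065 to 0.50, adjusted p = 0.37), which is 1.22-fold. It was 0.18 on scan day 1 and 0.37 on scan day 2. In restricted minus high RFI it was -0.22 (adjusted p = 0.919), with -0.24 on scan day 1 and -0.15 on scan day 2.

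The other EIF4G3 probe, A_72_P242127, gave 0.32 in high minus low RFI (adjusted p = 0.378), close to the first. It gave 0.028 in restricted minus high RFI, unlike the first, and in restricted high minus low RFI 0.35 (adjusted p = 0.219), against 0.060 for the first. The probes of EIF4G3 therefore placed the restricted pigs differently: beside the low RFI pigs by the first and beside the high RFI pigs by the second. That difference between probes was not tested.

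The only probe of EIF4G1, the main scaffold of the cap-binding complex, was dim. It was above background on 7 of 8 restricted high, 8 of 8 high and 8 of 8 low RFI arrays. Of the 108 probes, it alone was assigned by a synonym of the gene symbol. Its levels were -5.13, -4.34 and -4.15 (lowest, median and highest) in restricted high RFI pigs, -5.20, -4.56 and -4.30 in high RFI pigs and -4.88, -4.59 and -4.27 in low RFI pigs. The ranges overlapped, but 4 of the 8 restricted pigs lay above every pig of both other groups. The difference in restricted high minus low RFI was 0.14 (SE 0.14, adjusted p = 0.724), and it was -0.26 with another background correction. EIF4G2, which lacks the site for EIF4E and serves cap-independent starts, had levels of 3.63, 4.15 and 4.33 in restricted high RFI pigs, 3.66, 3.89 and 4.11 in high RFI pigs and 3.78, 4.06 and 4.31 in low RFI pigs. Its difference of 0.18 in restricted minus high RFI (SE 0.10, adjusted p = 0.922) was 0.36 on scan day 1 and -0.084 on scan day 2.

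EIF4E, the protein that binds the cap, had levels of 0.67, 0.83 and 0.98 (lowest, median and highest) in restricted high RFI pigs, 0.52, 0.77 and 1.11 in high RFI pigs and 0.42, 0.69 and 1.04 in low RFI pigs. Restricted pigs lay inside the range of each of the other groups, and the difference in restricted high minus low RFI was 0.11 (SE 0.095, adjusted p = 0.686). EIF4B, which aids the EIF4A helicase, had levels of -0.93, -0.75 and -0.57 in restricted high RFI pigs, -1.02, -0.78 and -0.61 in high RFI pigs and -1.08, -0.80 and -0.69 in low RFI pigs. These medians lay within 1 SD of each other, and no difference exceeded 0.079. EIF4A3, the helicase of the exon junction complex, had levels of 3.71, 3.88 and 4.33 in restricted high RFI pigs, 3.77, 3.79 and 3.89 in high RFI pigs and 3.54, 3.79 and 4.09 in low RFI pigs. Its difference in restricted high minus low RFI was 0.091 (SE 0.091, adjusted p = 0.724). The other EIF4A3 probe, A_72_P446337, was dimmer and gave -0.12 there (adjusted p = 0.689). In high minus low RFI it gave -0.21 (adjusted p = 0.543), against -0.017 for the brighter probe.

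EIF4A2, a helicase that unwinds the leader, was covered by 14 probes in 10 stretches. In high minus low RFI 12 of the 14 lay below 0, the lowest at -0.15, and in restricted minus high RFI all 14 lay above 0, from 0.010 to 0.19. A_72_P089511 stood apart, with 0.13 in high minus low RFI and 0.24 in restricted high minus low RFI (adjusted p = 0.34). It was the only one of the 14 assigned by a name in its description rather than by a RefSeq accession. By its brightest probe the differences of EIF4A2 were -0.12, 0.075 and -0.043 in high minus low, restricted minus high and restricted high minus low RFI. EIF4A1 gave -0.10, 0.10 and 0.0021 in the same order, with 1 restricted pig missing because its spot was marked as an outlier. EIF4E2, a cap-binding relative of EIF4E, gave -0.11, -0.0037 and -0.11. The closest probes of different genes, those of EIF4A1 and EIF4A2, matched at 39 of 58 aligned bases.

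The EIF4E regulators all lay below 0 in high minus low RFI, with none called and a median of -0.16 over the 3 genes. EIF4EBP2, an mTOR-controlled repressor of EIF4E, had levels of 2.52, 2.82 and 3.15 (lowest, median and highest) in restricted high RFI pigs, 1.76, 2.94 and 3.20 in high RFI pigs and 2.59, 2.97 and 3.57 in low RFI pigs. High RFI pigs 5 and 7 had 1.99 and 1.76 and lay below every other pig, while the other 6 had at least 2.9. The difference in high minus low RFI was -0.31 (SE 0.18, adjusted p = 0.621) with all pigs and -0.028 without pigs 5 and 7. EIF4ENIF1, which carries EIF4E into the nucleus, had levels of 0.48, 0.67 and 0.83 in restricted high RFI pigs, 0.61, 0.69 and 0.84 in high RFI pigs and 0.48, 0.82 and 1.06 in low RFI pigs. Its difference in restricted high minus low RFI was -0.14 (SE 0.076, adjusted p = 0.443), the smallest adjusted p of the factors in that comparison. The other EIF4ENIF1 probes, A_72_P488651 and A_72_P065306, gave 0.017 and -0.15 there. EIF4EBP1, which is dim here, gave -0.16, 0.14 and -0.022 in high minus low, restricted minus high and restricted high minus low RFI.

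**Figure D4:**
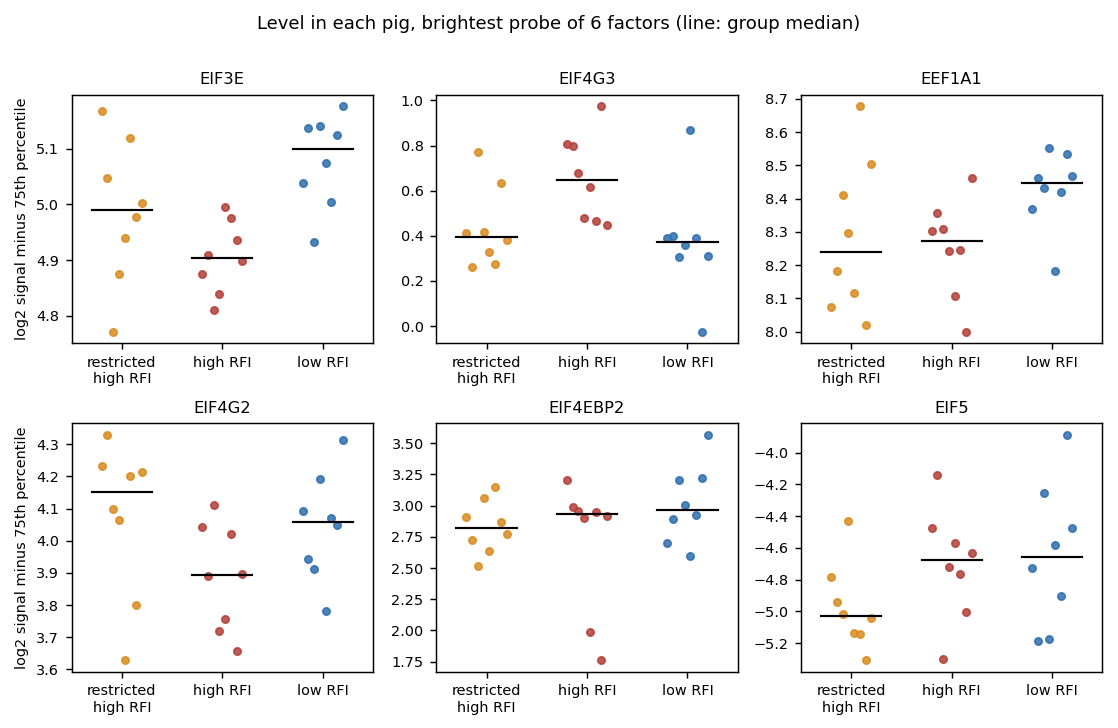
Level of 6 factors in each pig (log2 signal minus the array's 75th percentile, y axis, a separate scale for each factor, none starting at 0), with restricted high, high and low RFI pigs from left to right. Points are pigs and black lines group medians. High RFI pigs lie low for EIF3E and high for EIF4G3 with overlap, and 2 high RFI pigs of EIF4EBP2 lie at 1.99 and 1.76.

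The factors of start codon choice are EIF1 and its relative EIF1B, which guard against wrong starts, and EIF5, which triggers GTP hydrolysis by EIF2. EIF5 was dim, above background on 4 of 8 restricted high, 7 of 8 high and 4 of 8 low RFI arrays, so that it was kept through the high RFI arrays alone. Its levels were -5.31, -5.03 and -4.43 (lowest, median and highest) in restricted high RFI pigs, -5.30, -4.67 and -4.14 in high RFI pigs and -5.19, -4.65 and -3.89 in low RFI pigs. Restricted pigs lay low with much overlap. The differences were -0.28 in restricted minus high RFI (SE 0.17, adjusted p = 0.948) and -0.33 in restricted high minus low RFI (adjusted p = 0.449). EIF1 gave -0.18 in high minus low RFI (adjusted p = 0.701) and 0.11 in restricted minus high RFI, and EIF1B gave -0.060 and 0.11. The 7 EIF1B probes belong to 1 stretch, and all 7 lay above 0 in restricted minus high RFI, from 0.10 to 0.17.

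EIF2 carries the initiator tRNA, and EIF2S1 is its alpha subunit, the one phosphorylated under stress. EIF2S1 had levels of 1.88, 2.57 and 2.72 (lowest, median and highest) in restricted high RFI pigs, 2.06, 2.33 and 2.47 in high RFI pigs and 2.15, 2.47 and 2.64 in low RFI pigs. Its difference was 0.15 in restricted minus high RFI (SE 0.11, adjusted p = 0.962) and -0.12 in high minus low RFI (adjusted p = 0.781). All 4 of its probes had the same sign as the brightest in each of these comparisons. EIF2S2, the beta subunit, gave -0.13 in high minus low RFI and -0.16 in restricted high minus low RFI. EIF2S3, the gamma subunit, and EIF2A, a separate factor that can deliver the initiator tRNA, were not well above background.

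EIF2B1 and EIF2B5 are subunits of the exchange factor of EIF2. EIF2B1 had levels of 1.59, 1.93 and 2.1 (lowest, median and highest) in restricted high RFI pigs, 1.69, 1.87 and 2.0 in high RFI pigs and 1.74, 2.01 and 2.13 in low RFI pigs. Its difference in high minus low RFI was -0.13 (SE 0.075, adjusted p = 0.598), and all 4 of its probes lay below 0. EIF2B5, which encodes the catalytic subunit, had differences of -0.022, 0.0066 and -0.016 in high minus low, restricted minus high and restricted high minus low RFI, with an SE of 0.073 each. EIF5B, the GTPase that joins the ribosomal subunits, had levels of -2.83, -2.37 and -2.02 in restricted high RFI pigs, -2.57, -2.39 and -2.13 in high RFI pigs and -2.87, -2.35 and -2.08 in low RFI pigs, and no difference exceeded 0.043.

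EIF2C1, EIF2C2 and EIF2C4 carry the EIF prefix as older names of the argonautes AGO1, AGO2 and AGO4, which act with microRNAs rather than at the start codon. EIF2C1 had levels of -3.31, -2.98 and -2.41 (lowest, median and highest) in restricted high RFI pigs, -3.10, -2.77 and -2.37 in high RFI pigs and -3.56, -2.97 and -2.47 in low RFI pigs. The difference in high minus low RFI was 0.21 (SE 0.14, adjusted p = 0.697), and it was -0.048 with another background correction. The 2 measured probes of EIF2C2 had opposite signs in restricted minus high RFI, at 0.36 (SE 0.35) for A_72_P079166 and -0.22 (SE 0.12) for A_72_P060516. The second was dim, with a mean level of -4.72, and was above background on 7 of 8 restricted high RFI arrays. The brighter one varied most in the ad libitum groups, with an SD of 0.21 in restricted high, 0.79 in high and 0.98 in low RFI pigs.

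Of the 45 neighbouring genes listed (kinases of EIF2, the mTOR pathway, the stress response, poly(A)-binding and release factors, mitochondrial factors), 11 were found by name and 10 were measured. The others may still have probes, since 32127 of the 43603 probes were given no gene name. None was called in any comparison, against the same shares of all probes as above. DDIT4, a stress-induced inhibitor of mTOR, had mean levels of 3.36 ± 1.0 in restricted high RFI pigs, 2.69 ± 0.96 in high RFI pigs and 2.46 ± 0.48 in low RFI pigs (SD, n = 8 each). Its difference of 0.90 in restricted high minus low RFI (SE 0.40, adjusted p = 0.34) was the only one of the 10 with an unadjusted p under 0.05. EIF2AK2, the kinase PKR, which is induced by interferon and acts on EIF2S1, gave 0.55 in high minus low RFI (SE 0.29, adjusted p = 0.567). TPT1, which is translated under mTOR control, gave -0.065 in that comparison (adjusted p = 0.819), and DENR, which helps ribosomes restart, gave -0.063 (adjusted p = 0.828). DPH5, an enzyme of the diphthamide modification of EEF2, gave 0.12 in restricted minus high RFI (adjusted p = 0.966).

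The share of spots above background was 67.4% ± 2.81 in restricted high, 70.2% ± 2.28 in high and 67.8% ± 2.77 in low RFI pigs (SD, n = 8 each). By slide, its mean ran from 63.9% to 71.4% over 6 slides, which did not hold the groups in equal numbers. Slide and group were not separated for this share. Precision is limited by the number of arrays. All 5 measured hepatocyte markers were above background on all arrays, with median differences of -0.012, -0.049 and -0.048 in high minus low, restricted minus high and restricted high minus low RFI. Markers of stellate cells and fibroblasts (6 measured of 8 listed) had medians of -0.39, -0.13 and -0.59 in the same order, with a mean level per pig from -0.26 to 0.54 in restricted high, -0.25 to 0.59 in high and 0.32 to 0.98 in low RFI pigs. Those of neutrophils (3 measured of 4) had medians of -0.61, 0.23 and -0.37, with a mean level from -4.13 to -1.94, -4.30 to -2.84 and -3.91 to -0.68 in the same pigs. Those of pancreatic acinar cells (2 measured of 6) had medians of -0.56, -0.33 and -0.89, with a mean level from -1.33 to 0.37, -1.0 to 0.54 and -0.20 to 0.99. These came from CPA1, at -1.32, -0.48 and -1.81, while AMY2 was at 0.19, -0.17 and 0.028. Among the stellate cell and fibroblast markers, LUM lay above 0, at 0.0014, 0.11 and 0.11, while RGS5 was at -1.10, -0.18 and -1.28. Macrophage and Kupffer cell markers (3 measured of 6) had medians above 0, at 0.17, 0.099 and 0.23, with CD14 at -0.12, 0.099 and -0.021. No gene of these lists was called. In bulk liver, fewer cells of a type and less RNA per cell cannot be told apart, and the part of these cells in the factors' values was not tested.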

How the data were processed

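Per the labels' protocols, liver RNA of each pig was amplified, labelled with Cy3 and hybridised to a 1-colour Agilent array. Per the file headers, the deposited intensity values are the processed signal of Agilent Feature Extraction 10.7.3.1, with background subtracted and a detrending applied. R 2.10.0 is named in the submitters' processing notes. A table of log2 values of 27560 features, deposited by the authors, equalled log2 of that signal minus each array's median over those features. It was used as an alternative only.

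Control spots were left out, 1055 spots marked as outliers were set to missing, signals were put on the log2 scale, each array's 75th percentile was subtracted and spots of a probe were averaged (43603 probes). Probes stayed in if 6 or more of the 8 arrays of some group had them well above background (29662 probes). Differences were fitted with limma 3.58.1 (R 4.3.3; lmFit and eBayes) on all 24 arrays, with Benjamini-Hochberg adjustment over all kept probes and a threshold of 0.05. Plots were drawn with matplotlib 3.10.9 in Python 3.11.15 after the tables were prepared with numpy 2.4.6 and pandas 2.3.3, and the fit was tested on simulated data.

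Names of the 108 probes came from the scanner output's symbol, description, systematic name or gene identifier, and for 1 probe through a synonym of the symbol. They were matched to pig gene names and RefSeq names of Sscrofa11.1. A further 13 probes were left out, 9 described as homologues outside mammals, 2 with an unsettled EEF1A gene and 2 tied to EIF3J or EIF2S2 only by the accessions column, which the rule did not use. Named with their lowest, median and highest values were the 5 measured factors with the smallest p in each direction of each comparison and the first of each role group by F test, 21 in all. The members, role groups, other lists and alternatives were chosen with earlier results of these data known.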

Additional observations from a re-analysis of the deposited data

Results flagged for a closer look

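Levels of the 21 factors named with their ranges were screened in each group of 8 pigs for a pig far from the rest, by comparing its gap to the nearest pig, divided by the group's range, with 0.526. Of 63 groups screened, 2 exceeded it, and chance alone exceeds it in about 1 in 20 groups. In EIF3A, high RFI pig 8 was lowest at 4.54, with the next pig at 4.75 and the highest at 4.91. In EIF4G1, the same pig was lowest at -5.20, with the next pig at -4.63 and the highest at -4.30. Neither factor was called in any comparison.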

How the results depend on the processing

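All 71 recounts of called factors under the alternatives (background correction, scaling, the authors' value table, filters, slide, scan day, array weights, pigs or a slide left out, outlier spots kept) gave 0, and over the named differences the lowest adjusted p was 0.128. Keeping the outlier spots was chosen after seeing the data. The pig numbers were not taken as pairs in the main fit. The correlation of deviations of same-numbered pigs exceeded 0.1 in 1 of 8 numbers for high with low RFI pigs. It did so in 5 of 8 for restricted with high (median 0.17) and in 2 of 8 for restricted with low RFI pigs. Pigs of different numbers were not compared in this way, so these values cannot decide whether the numbers mark pairs. With pig number as a block the called factors stayed at 0, the medians at -0.067, 0.041 and -0.011, and probes called among all numbered 48 in high minus low RFI and 98 in restricted high minus low RFI, against 45 and 82. Over all alternatives those 2 counts ran from 5 to 89 and from 10 to 98. The median difference over factors ranged from -0.11 to -0.040 in high minus low RFI, from -0.016 to 0.078 in restricted minus high RFI and from -0.084 to 0.031 in restricted high minus low RFI. The -0.084 came from scan day 2 alone and differed from the value with all pigs, -0.011, by more than 0.060, the SD between pigs of the mean over the factors, and the cause was not tested.

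Of 535 recomputed differences of named factors, 521 kept their direction and stayed short of the threshold, and 14 changed sign, none of them called; the cause was not tested. On scan day 1 alone these were EEF1D at -0.064 in restricted high minus low RFI, and in high minus low RFI EEF2K at -0.024, EIF2C1 at -0.036 and EIF4B at -0.035. On scan day 2 alone they were, in restricted minus high RFI, EEF2K at 0.038, EIF2C1 at 0.17, EIF2S1 at -0.090 and EIF4G2 at -0.084, and in restricted high minus low RFI EIF4A3 at -0.16 and EIF4E at -0.00046. With normexp background correction they were EIF2C1 at -0.048 in high minus low RFI, EIF3A at 0.0076 in restricted minus high RFI and EIF4G1 at -0.26 in restricted high minus low RFI. Without high RFI pigs 5 and 7, EIF4E was at -0.010 in high minus low RFI. Of 30 named differences, normexp made 14 smaller by over 1.5 times or turned them and 4 larger by as much, among them EEF1G in high minus low RFI at -0.026 and EEF1E1 in restricted minus high RFI at 0.044, and scan days 1 and 2 alone moved 19 each by as much. The probes of EIF5 and EIF4G1 were not above background on every array, which limits what can be read from their differences.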
